A study of Mus musculus with 12 samples.

Results

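The 36 genes described here were mouse genes of the interferon response together with the genes of major histocompatibility complex (MHC) class I antigen presentation. They were chosen by symbol from a list, all 36 listed symbols were present, and the whole expression table held 22552 genes. The study compared mice lacking Lbr, which encodes the lamin B receptor of the inner nuclear membrane, or Lmna, which encodes the nuclear lamins A and C, with wild-type mice of the C57Bl/6 strain. RNA of 12 samples was sequenced, 6 of cultured myoblasts and 6 of striated muscle. The deposited table gave 7 columns of FPKM (fragments of a gene scaled to transcript length and to the mapped fragments of the library), 1 for each group. In myoblasts the groups were knockouts labelled LBR_KO, knockouts labelled LMNA_KO, and a wild-type library from each knockout's litter. In muscle the groups were LBR_KO, LMNA_KO and a wild type that served both knockouts. The 4 knockout groups and wild-type muscle each had 2 samples behind a single value per gene, and each wild-type myoblast column was 1 library. The spread between replicate samples was therefore not known, no error could be given, and every difference below is a description of these columns. The animals came from matings of heterozygous parents, the allele and deleted part of each gene were not given in the labels, and neither were age, sex or the muscle sampled. Myoblast libraries were made with one NuGEN kit (Ovation) and muscle libraries with another (complete), so that tissue and kit cannot be told apart.

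Interferons bind cell-surface receptors and, through the JAK kinases, activate a transcription factor complex that holds Stat2 and Irf9 and switches on genes carrying an interferon-stimulated response element. The induced genes include cytosolic RNA sensors, antiviral effectors, GTPases that attack intracellular pathogens, and the machinery that cuts proteins into peptides and presents them on MHC class I. Skeletal muscle fibres carry little class I at rest, whereas macrophages, lymphocytes and endothelial cells that lie between the fibres carry more.

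The labelled targets and tissues were read first. In myoblasts Lbr stood at 7.71 FPKM in the LBR_KO column against 16.1 and 14.7 in the wild types, and Lmna at 18.5 FPKM in the LMNA_KO column against 114 and 147. In muscle Lbr stood at 1.87 FPKM in LBR_KO against 11.8 in wild type, and Lmna at 22.6 FPKM in LMNA_KO against 59.5. Muscle columns carried the fibre genes Acta1 (13887 to 17215 FPKM) and Ckm (4488 to 5120 FPKM). Of the 5 myoblast markers, Des stood at 18.7 to 85.2 FPKM in the myoblast columns. Myog stood at 2.89 to 10.5 FPKM and the myoblast regulator Myod1 at 2.09 to 5.51 FPKM, while Pax7 and Myf5 were at most 0.441 FPKM. The macrophage lysozyme gene Lyz2 stood at 316 FPKM in the wild-type myoblasts of the Lbr litter and at 918 to 1131 FPKM in the other 3 myoblast columns, above Myod1 in each.

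Promoter sequence was searched for the elements that interferon signalling reads. RefSeq windows of 300 bases (250 before to 50 after the start site, build GRCm38.p6, a later build than that of the expression table) were held for 29 of the 36 genes, the others being Mx1, Dhx58, Usp18, Iigp1, Rtp4, Parp14 and Zbp1. The windows were searched on both strands for an interferon-stimulated response element, written as TTTC, any 2 bases, then TTTC, and for a gamma-activated site, written as TTC, any 3 bases, then GAA. The response element occurred in 13 of 29 members, or 44.8%, against 3.99% of 27025 genes. The gamma-activated site occurred in 7 of 29 members, or 24.1%, against 9.55% of all genes. A match describes letters and is not evidence that a factor binds there. Lack of a match is not evidence that an element is absent, since a form that departs from the written letters is missed. The 6 windows below show the class I genes called or near the call in muscle (H2-K1, Tap1 and Psmb8), B2m, Bst2 as the member that differed most between the myoblast wild types, and Isg15 as a member with several response elements that was called in no comparison. They run 5′ to 3′ on the gene's strand, with matches to either motif in capitals. Isg15 (chr4:156200769-156201068, minus strand) held 3 overlapping response elements 78, 72 and 66 bases before its start. Bst2 (chr8:71537423-71537722, minus strand) held overlapping response elements 130 and 124 bases before the start. The element at 130 bases also overlapped a gamma-activated site at 136 bases. B2m (chr2:122147437-122147736, plus strand) held 1 response element at 139 bases and Psmb8 (chr17:34197945-34198244, plus strand) 1 gamma-activated site at 97 bases. Tap1 (chr17:34187306-34187605, plus strand) held neither motif as written in this window, and neither did H2-K1 (chr17:34000284-34000583, minus strand). Psmb9, read from the opposite strand, shares 275 bases of the Tap1 window, so that Tap1 and Psmb9 have one promoter region between them.
Isg15: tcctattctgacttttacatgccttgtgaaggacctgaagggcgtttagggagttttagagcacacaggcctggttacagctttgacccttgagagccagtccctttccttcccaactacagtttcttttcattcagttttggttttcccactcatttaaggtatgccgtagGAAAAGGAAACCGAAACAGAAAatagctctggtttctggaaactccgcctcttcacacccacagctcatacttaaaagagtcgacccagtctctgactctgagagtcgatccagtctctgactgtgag
Bst2: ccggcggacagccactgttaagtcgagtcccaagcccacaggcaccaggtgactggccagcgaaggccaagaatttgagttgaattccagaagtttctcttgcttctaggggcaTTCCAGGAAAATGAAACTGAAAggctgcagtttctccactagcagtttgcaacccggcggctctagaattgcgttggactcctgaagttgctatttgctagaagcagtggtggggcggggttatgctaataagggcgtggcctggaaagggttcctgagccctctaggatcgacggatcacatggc
B2m: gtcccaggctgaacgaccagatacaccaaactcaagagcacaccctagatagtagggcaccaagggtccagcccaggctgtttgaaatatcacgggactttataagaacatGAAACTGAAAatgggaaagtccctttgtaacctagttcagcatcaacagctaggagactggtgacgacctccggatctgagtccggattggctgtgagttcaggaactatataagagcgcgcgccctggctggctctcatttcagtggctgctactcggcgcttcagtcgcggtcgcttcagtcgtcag
Psmb8: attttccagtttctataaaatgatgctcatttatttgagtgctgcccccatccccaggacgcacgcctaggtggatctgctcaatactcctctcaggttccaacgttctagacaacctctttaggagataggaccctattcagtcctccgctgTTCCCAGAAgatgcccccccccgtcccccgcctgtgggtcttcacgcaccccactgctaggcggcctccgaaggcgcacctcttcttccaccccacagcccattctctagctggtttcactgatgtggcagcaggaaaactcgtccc
Tap1: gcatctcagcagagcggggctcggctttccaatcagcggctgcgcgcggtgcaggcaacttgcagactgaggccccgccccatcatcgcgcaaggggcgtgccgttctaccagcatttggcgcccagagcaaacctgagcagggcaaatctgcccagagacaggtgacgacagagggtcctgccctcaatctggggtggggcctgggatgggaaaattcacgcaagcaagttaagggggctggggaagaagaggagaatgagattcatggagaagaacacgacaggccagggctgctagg
H2-K1: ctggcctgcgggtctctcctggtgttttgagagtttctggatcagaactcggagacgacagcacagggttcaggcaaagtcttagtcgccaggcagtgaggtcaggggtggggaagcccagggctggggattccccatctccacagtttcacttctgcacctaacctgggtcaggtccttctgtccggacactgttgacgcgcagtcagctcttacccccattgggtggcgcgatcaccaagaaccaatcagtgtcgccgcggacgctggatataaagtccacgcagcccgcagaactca

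The class I genes held the most abundant member, B2m, and the members that rose in a muscle knockout, H2-K1 and Tap1. B2m, the invariant light chain of every class I molecule, stood at 642 and 790 FPKM in the wild-type myoblasts of the Lbr and Lmna litters, 701 in LBR_KO and 727 in LMNA_KO. In muscle B2m stood at 125 FPKM in wild type, 174 in LBR_KO and 163 in LMNA_KO. The heavy chain H2-K1 stood at 19.6, 34.7, 32.9 and 33.8 FPKM in the same 4 myoblast columns and at 24.5, 61.0 and 46.2 FPKM in the 3 muscle columns. The heavy chain H2-D1 stood at 25.2, 41.5, 36.3 and 37.7 FPKM in myoblasts and at 14.7, 25.5 and 22.5 FPKM in muscle. All 3 genes were lowest within myoblasts in the wild type of the Lbr litter, and lowest within muscle in the wild type. H2-K1 was 78.0% to 90.7% of H2-D1 in the myoblast columns and 167% to 239% of it in the muscle columns, so the order of the heavy chains differed between the tissues in every column. H2-K1 and H2-D1 share sequence with other class I genes: 9.63% and 12.8% of the 50-base stretches in their transcripts also occur in transcripts of other genes, and how the authors' counting assigned such fragments was not given.

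**Figure D1:**
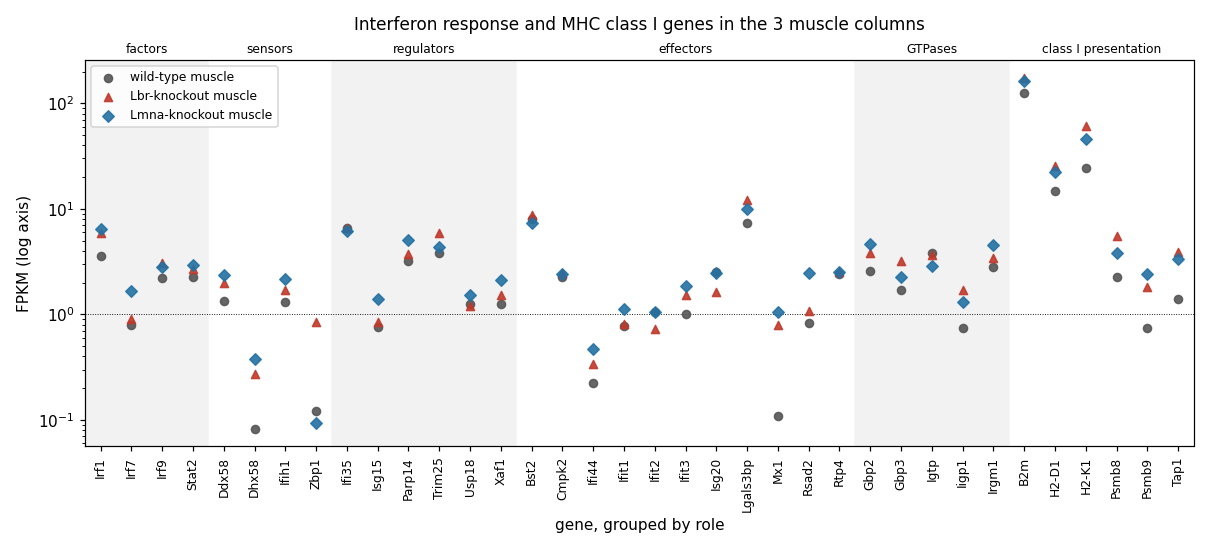
FPKM of the members in the 3 muscle columns (log axis), with 1 point per column for wild type, LBR_KO and LMNA_KO. H2-K1 ran from 24.5 in wild type to 61.0 in LBR_KO, and B2m was the highest member in each column.

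In LBR_KO muscle against wild-type muscle, Tap1 and H2-K1 rose. A gene was called higher or lower where log2(FPKM + 1) differed by at least 1, that is 2-fold on that scale, among genes that averaged 1 FPKM or more over the tissue's columns and had no 0 in a compared column. This scale understates the change of genes near 1 FPKM. Of the 36 members, 30 entered the muscle comparisons, and 5 of those (Isg15, Irf7, Rsad2, Iigp1 and Psmb9) were under 1 FPKM in wild type. The other 6, Ifit1, Ifit2, Mx1, Dhx58, Zbp1 and Ifi44, were too low. Tap1, a subunit of the transporter that carries peptides into the endoplasmic reticulum, stood at 1.41 FPKM in wild type and 3.86 in LBR_KO, a log2 difference of 1.02. H2-K1 differed by 1.28. These were 2 of 30 members higher by at least 2-fold, against 1.3% of 12080 genes, and 0 members were lower, against 0.265%. With every column centred on its median, Tap1 stood at 0.90 and only H2-K1 passed.

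The remaining class I genes lay below the threshold in LBR_KO muscle. Psmb8, an inducible catalytic subunit of the immunoproteasome, stood at 2.27 FPKM in wild type and 5.50 in LBR_KO, a log2 difference of 0.99. Psmb9, another such subunit, stood at 0.743 and 1.81 FPKM, a difference of 0.69. H2-D1 differed by 0.76 and B2m by 0.48. All 6 class I genes had a higher value in LBR_KO than in wild type. Their median log2 difference was 0.87, against 0.10 over all genes tested. Psmb9 was under 1 FPKM in wild type and was compared only through its knockout values. The 5 others had a median of 0.99, against 0.09 over genes at 1 FPKM or more in wild type. Set against the constitutive subunits they replace, Psmb8 was 1.70% of Psmb5 in wild-type muscle and 4.71% in LBR_KO, and Psmb9 was 0.640% of Psmb6 and 1.71%. By a rough estimate Psmb9 rested on only 2.41 fragments in wild-type muscle and 4.44 in LBR_KO, and Psmb8 on 11.6 and 21.3. Psmb10, the remaining inducible subunit and not a member, was 4.34% of Psmb7 in wild type and 5.90% in LBR_KO.

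Outside class I, none of the 24 members compared passed in LBR_KO muscle, and their median log2 difference was 0.19. Several exceeded B2m, the class I gene that differed least. Irf1, a transcription factor induced by interferon gamma that acts on class I and immunoproteasome genes, stood at 3.59 FPKM in wild type and 5.86 in LBR_KO, a log2 difference of 0.58. Irf9 and Stat2, which belong to the interferon-activated complex, differed by 0.34 and 0.18. Irf7, which amplifies interferon production, stood at 0.800 and 0.906 FPKM. The GTPases Gbp3 and Iigp1 each differed by 0.64, and Gbp2 by 0.43. The antiviral effectors had a median of 0.10 over the 7 compared, with Lgals3bp, a secreted galectin-binding glycoprotein, highest at 0.63 and the exonuclease gene Isg20 lowest at -0.43. The RNA sensor genes Ddx58 (RIG-I) and Ifih1 (MDA5) differed by 0.34 and 0.22. Isg15, a ubiquitin-like modifier, differed by 0.07 and Usp18, the protease that removes it, by -0.02. Of the 30 members, 27 had a higher value in LBR_KO than in wild type, against 66.6% of all genes, and their median was 0.28. The median of all genes was 0.10 above 0, and after centring 21 of the 30 members were higher. The 5 members under 1 FPKM in wild type were compared only through their knockout values. Of the 25 others 22 were higher in LBR_KO, against 65.5% of the genes at 1 FPKM or more in wild type.

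In LMNA_KO muscle no member reached 2-fold. This was 0 of 30 members higher, against 1.93% of 12068 genes, and 0 lower, against 0.762%. The members nearest the threshold were Psmb9, at 0.743 FPKM in wild type and 2.43 in LMNA_KO (log2 difference 0.97), and Rsad2, which encodes the antiviral enzyme viperin, at 0.823 and 2.47 FPKM (0.93). Psmb9 rested on an estimated 5.96 fragments in LMNA_KO. Rsad2 averaged 1 FPKM only with the LMNA_KO column included, so its difference is a description only. H2-K1 differed by 0.89, Tap1 (3.38 FPKM in LMNA_KO) by 0.86, H2-D1 by 0.58, Psmb8 (3.86 FPKM) by 0.57 and B2m by 0.38. All 6 class I genes were again higher than in wild type, with a median of 0.72. Psmb9 was under 1 FPKM in wild type and was compared only through its knockout values. The 5 others had a median of 0.58, against 0.11 over genes at 1 FPKM or more in wild type. Under quantile normalization 1 member passed.

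Other members in LMNA_KO muscle showed a spread of smaller differences. Irf1 stood at 6.42 FPKM and differed by 0.69, Irf7 stood at 1.65 FPKM and differed by 0.56, and Irf9 and Stat2 differed by 0.25 and 0.29. Gbp2 differed by 0.66 and Irgm1, a GTPase of autophagic defence, by 0.52, whereas the related Igtp differed by -0.31. Isg15 stood at 1.40 FPKM against 0.761 in wild type and differed by 0.45, on an estimated 3.32 and 2.38 fragments. Irf7 and Isg15 averaged 1 FPKM only with the LMNA_KO column included, so their differences are descriptions only. Ddx58 differed by 0.51, Ifih1 by 0.45, Parp14 by 0.53 and Ifit3 by 0.51, although 51.2% of the 50-base stretches of Ifit3 also occur in Ifit3b. Xaf1, which promotes cell death, differed by 0.47, Iigp1 by 0.41, Gbp3 by 0.28, Usp18 by 0.17, Trim25, a ubiquitin ligase that activates RIG-I, by 0.15, Cmpk2 by 0.07 and Rtp4 by 0.05. Bst2, the virus-tethering protein tetherin, stood at 8.03, 8.69 and 7.29 FPKM in the 3 muscle columns and differed by -0.12 and Ifi35 by -0.07. Igtp and Rtp4 also share sequence with other genes, over 11.8% and 11.6% of their stretches. Of 30 members, 26 were higher in LMNA_KO than in wild type, against 65.5% of all genes. The median of members was 0.45, against 0.13 over all genes, and after centring 24 were higher. Of the 25 members at 1 FPKM or more in wild type, 21 were higher, against 64.2% of such genes, with a median of 0.39. Members too low to compare had their highest muscle values in a knockout in several cases: Mx1 was listed at 0.108 FPKM in wild type, 0.797 in LBR_KO and 1.05 in LMNA_KO, and Zbp1, a nucleic acid sensor of cell death, at 0.120, 0.851 and 0.0944. The estimated fragments behind these values were 0.524, 2.93 and 3.85 for Mx1 and 0.991, 5.31 and 0.59 for Zbp1. Dhx58, the helicase LGP2, was listed at 0.0823, 0.272 and 0.381 FPKM, Ifi44 at 0.222, 0.341 and 0.470, and Ifit1 at 0.783, 0.814 and 1.14. Ifit2 was lowest in LBR_KO, at 1.05, 0.729 and 1.04 FPKM.

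**Figure D2:**
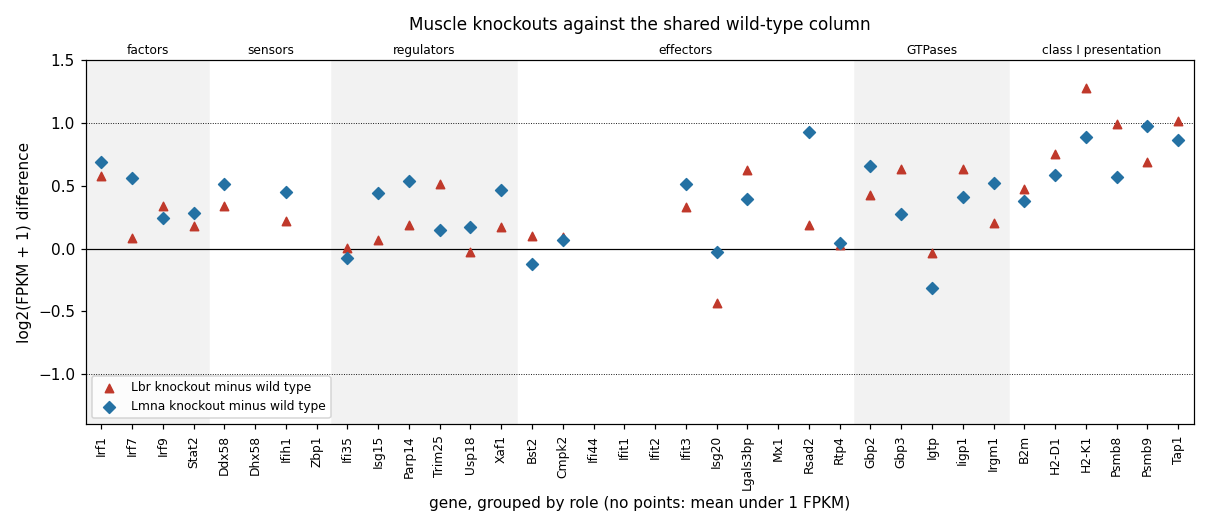
Log2(FPKM + 1) difference of each compared member from wild-type muscle, for LBR_KO and LMNA_KO, with the 2-fold threshold at 1 marked by a line. H2-K1 (1.28) and Tap1 (1.02) in LBR_KO lie past the line, and no member does in LMNA_KO.

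Both muscle differences were taken from the same wild-type column, so a value in that column enters both. The knockouts were therefore also set directly against each other. No member differed by 2-fold: 0 of 30 were higher in LBR_KO (0.679% of 12069 genes) and 0 were lower (0.812%). Of the 30, 14 had the higher value in LBR_KO, against 47.3% of all genes, and the median was -0.06 against -0.02. Rsad2 showed the widest gap, at 1.07 FPKM in LBR_KO and 2.47 in LMNA_KO (-0.74). Irf7 differed by -0.48, Psmb8 by 0.42, Isg20 by -0.41 and H2-K1 by 0.39. Rsad2 and Irf7 averaged 1 FPKM only with the LMNA_KO column included, so their differences are descriptions only. Of the 6 class I genes, 5 were higher in LBR_KO, the exception being Psmb9 at -0.29. Among transcription factor genes, 3 of 4 were higher in LMNA_KO, with Irf7 counted among the 3.

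The wider pathway in muscle was read from lists that held none of the 36 members. Of 32 other interferon-induced genes compared, 3 rose in LBR_KO: Epsti1 (1.53 FPKM in wild type, 6.41 in LBR_KO, log2 difference 1.55), Sp110 (1.18 and 4.20 FPKM, 1.25) and Ifi27l2a (4.98 and 13.0 FPKM, 1.23). In LMNA_KO 5 of the 32 rose, namely Epsti1 (5.33 FPKM, 1.32), Sp110 (4.20 FPKM, 1.25), Cxcl10 (0.215 FPKM in wild type and 1.87 in LMNA_KO, 1.24), Gbp6 (1.33 and 4.35 FPKM, 1.20) and Ifi27l2a (12.2 FPKM, 1.14). Cxcl10 was under 1 FPKM in wild type and averaged 1 FPKM only with the LMNA_KO column included, and without it 4 genes were called. It encodes a chemokine that attracts T cells, and Gbp6 is another guanylate-binding protein. Over all genes 1.3% rose in LBR_KO and 1.93% in LMNA_KO. The list's medians were 0.39 in LBR_KO and 0.59 in LMNA_KO, against 0.10 and 0.13 over all genes. Gbp6 also differed between the knockouts, at 1.49 FPKM in LBR_KO (-1.10). Of 9 JAK-STAT genes, 1 rose in LBR_KO, the leukocyte phosphatase gene Ptpn6 (1.17 and 4.29 FPKM, 1.29), and 0 in LMNA_KO. None of 5 receptor genes, 10 sensor and adaptor genes, 12 other antigen-processing and class I genes or 6 constitutive proteasome genes passed in either knockout. The 12 antigen-processing and class I genes outside the members had medians of 0.20 in LBR_KO and 0.15 in LMNA_KO. Of these 12, 2 were lower than wild type in LBR_KO and 5 in LMNA_KO.

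Interferon genes themselves were at or near 0. Ifna1 was listed at 0 in all 7 columns. Ifnb1 stood at 0.267 FPKM in wild-type muscle, 0 in LBR_KO and 0.209 in LMNA_KO, Ifna4 at 0.770, 0 and 0.515, and Ifng at 0, 0 and 0.25. In the myoblast columns Ifng and Ifna4 were listed at 0, and Ifnb1 was at most 0.113 FPKM. The receptor genes were present in every column, with Ifnar1 at 10.6 to 12.8 FPKM in myoblasts and 4.41 to 5.29 in muscle, and Ifngr1 at 21.0 to 24.6 and 21.1 to 28.5 FPKM.

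Summed levels of immune cell markers were higher in both knockouts than in wild-type muscle, as the class I values were. The 12 lymphocyte markers summed to 14.9 FPKM in wild-type muscle, 66.2 in LBR_KO and 41.2 in LMNA_KO, with none at 0. Of the 11 compared, 6 rose in LBR_KO and 4 in LMNA_KO, with medians of 1.19 and 0.86, against 1.3% and 1.93% of all genes. Of these, 4 in LBR_KO (Cd3e, Cd3d, Ms4a1 and Cd37) and 2 in LMNA_KO (Cd3d and Cd37) were under 1 FPKM in wild type and were compared only through their knockout values. The 4 markers at 1 FPKM or more in wild type gave 2 calls in each knockout, Cd79a and Cd79b. The B cell receptor gene Cd79a stood at 2.93, 18.4 and 9.08 FPKM. The 18 macrophage and leukocyte markers summed to 165, 264 and 234 FPKM, and 4 of 15 compared rose in each knockout. In both knockouts these were Ptprc, Laptm5, Coro1a and Cd52, whereas Lyz2 and Csf1r did not pass. Another 3 of the 15 (Cd68, Fcer1g and Mrc1) had a lower value in LBR_KO than in wild type, and 2 (Aif1 and Mrc1) had in LMNA_KO. Cd68 stood at 5.65, 3.81 and 6.83 FPKM, Mrc1 at 9.60, 8.85 and 6.92, Fcer1g at 12.9, 11.1 and 17.6, and Aif1 at 3.24, 4.77 and 2.85. Endothelial markers, of which 0 of 8 rose in either knockout, summed to 226, 254 and 265 FPKM. The part of these cells in the class I values was not tested. In bulk tissue, more cells of a type and more RNA of a gene per cell cannot be told apart.

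**Figure D3:**
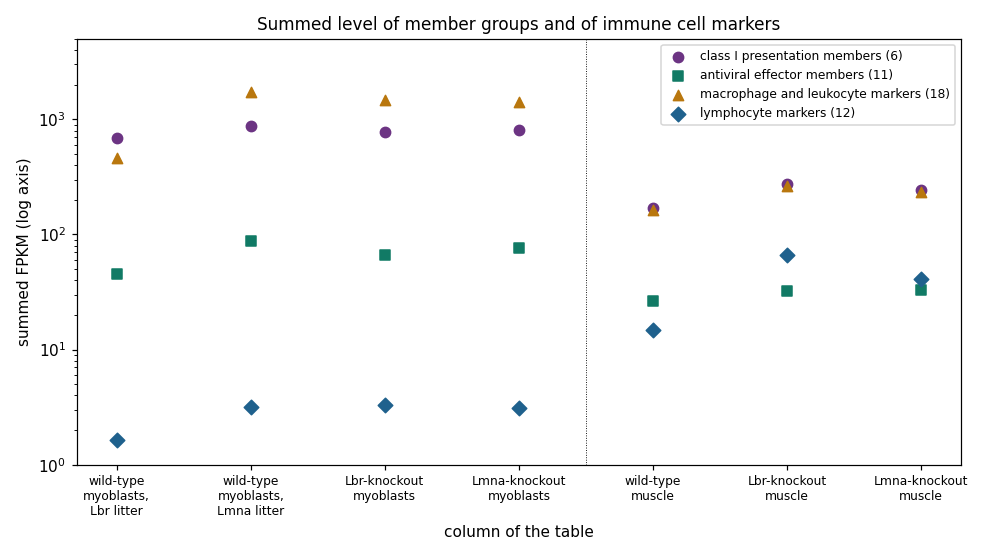
Summed FPKM (log axis) of the 6 class I members, the 11 antiviral effector members, the 18 macrophage and leukocyte markers and the 12 lymphocyte markers in the 7 columns. In muscle the lymphocyte sum ran 14.9, 66.2 and 41.2 FPKM in wild type, LBR_KO and LMNA_KO, and in myoblasts the macrophage and leukocyte sum was lowest in the wild type of the Lbr litter, at 462.

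In myoblasts the widest differences among the members lay between the 2 wild types. In all, 26 members were compared, 4 of them (Gbp3, Rtp4, Psmb9 and Ifi44) with a column under 1 FPKM. The other 10 were too low: Ifit1, Ifit3, Irf7, Mx1, Dhx58, Usp18, Rsad2, Cmpk2, Iigp1 and Zbp1, of which Usp18 reached the highest value, 1.49 FPKM. Bst2 stood at 7.33 FPKM in the wild type of the Lbr litter, 22.1 in that of the Lmna litter, 12.0 in LBR_KO and 14.5 in LMNA_KO. Psmb9 stood at 0.304, 2.50, 2.14 and 2.41 FPKM in the same columns, on an estimated 3.95, 32.5, 19.6 and 22.1 fragments. Bst2 differed by 1.47 and Psmb9 by 1.43 between the wild types, and both rose in the Lmna litter. These were 2 of 26 members, against 2.03% of 11504 genes, and 0 members were lower, against 0.687%. Lgals3bp (26.3 and 50.6 FPKM) differed by 0.92, H2-K1 by 0.79, Irgm1 by 0.77, Rtp4 by 0.71, H2-D1 by 0.70 and Psmb8 (3.05 and 5.39 FPKM) by 0.66. Of 26 members, 23 were higher in the wild type of the Lmna litter, against 57.5% of all genes, the exceptions being Ifit2, Gbp3 and Ifih1, the last at 1.47 FPKM in both. The median of members was 0.53, against 0.07, and after centring 21 members were higher. The same columns differed in macrophage and leukocyte markers, which summed to 462 FPKM in the wild type of the Lbr litter and 1728 in that of the Lmna litter, with 15 of 18 higher by at least 2-fold, a median log2 difference of 1.83 and none at 0. Their part in the members' values was not tested.

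**Figure D4:**
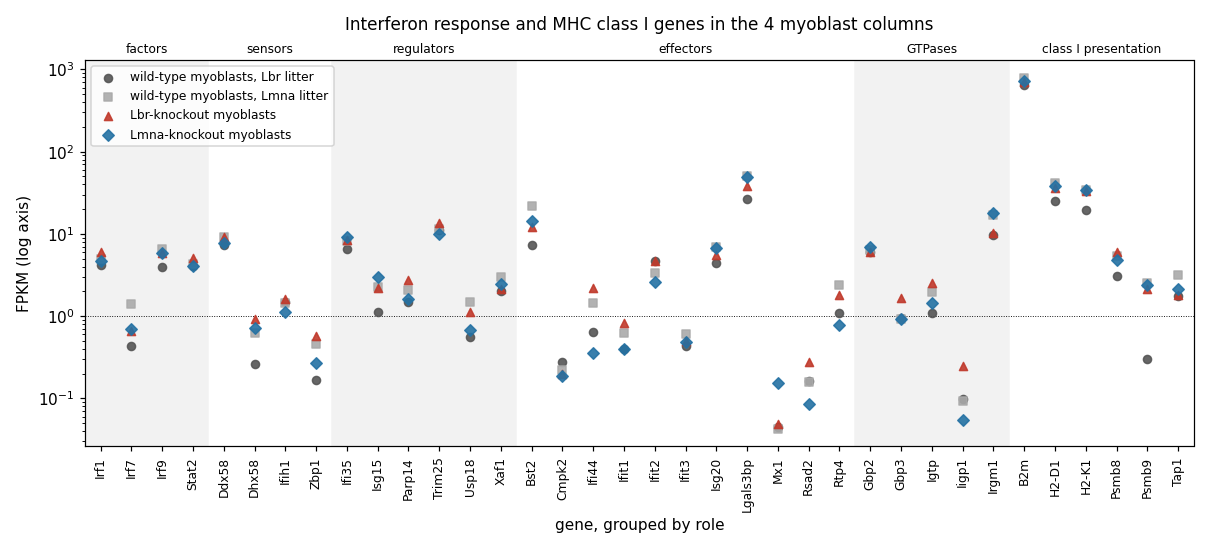
FPKM of the members in the 4 myoblast columns (log axis), with 1 point per column. Psmb9 (0.304 FPKM) and Bst2 (7.33 FPKM) were lowest in the wild type of the Lbr litter, below the other 3 columns.

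No member rose or fell in LBR_KO myoblasts when both wild types had to agree in direction. This was 0 of 26 higher, against 0.454% of 11457 genes, and 0 lower, against 0.0786%. Against the wild type of its own litter Psmb9 alone passed, by 1.27 (1 of 26 members, background 2.48% higher), and against the wild type of the Lmna litter it differed by -0.16 and 0 members were higher by 2-fold (1.56%). The median of members was 0.43 against the own litter's wild type and -0.05 against the other, with 0.05 and -0.01 over all genes. Macrophage and leukocyte markers moved with the choice of wild type: 18 of 18 were higher by at least 2-fold against the own litter's (median 1.80) and 0 of 18 against the other (median -0.02). Their part in the members' values was not tested here either. In LBR_KO 11 members lay above both wild types by any amount, against 31.9% of all genes, and 14 lay between them, against 45.7%. Gbp2 was the 1 member below both, against 22.4%. The widest shared differences were Gbp3 (0.959 and 0.911 FPKM in the wild types, 1.65 in LBR_KO, at least 0.44 above each) and Ifi44 (0.640, 1.43 and 2.22 FPKM, at least 0.41). Both genes averaged 1 FPKM only with the LBR_KO column included, so their differences are descriptions only. Parp14 (1.48, 2.06 and 2.75 FPKM) was at least 0.30 above each wild type. Irf1 and Igtp (1.10, 1.97 and 2.53 FPKM) were at least 0.25 above each, and Stat2 at least 0.23.

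In LMNA_KO myoblasts again no member passed against both wild types. The counts were 0 of 26 higher, against 0.349% of 11455 genes, and 0 lower, against 0.297%. Against the wild type of its own litter 0 members were higher by 2-fold (0.602%), and against that of the Lbr litter Psmb9 was, by 1.39 (3.39%). Isg15, Gbp2, Irgm1 and Ifi35, 4 members, lay above both wild types by any amount, against 42.4% of genes. Another 6 lay below both, against 25.3%: Ifit2, Stat2, Ifih1, Rtp4, Ifi44 and Trim25. The remaining 16 lay between, against 32.3%. Isg15 stood at 1.14 and 2.29 FPKM in the wild types and 2.99 in LMNA_KO, at least 0.28 above each. Ifit2 stood at 4.71, 3.38 and 2.58 FPKM (nearest wild type -0.29) and Ifi44 at 0.640, 1.43 and 0.359 FPKM (-0.27). The median of members was -0.12 against the own litter's wild type and 0.19 against the other, with 0.04 and 0.10 over all genes. Of the macrophage and leukocyte markers, 0 of 18 were higher by 2-fold against the own litter's wild type (median -0.28) and 13 of 18 against the other (median 1.53).

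**Figure D5:**
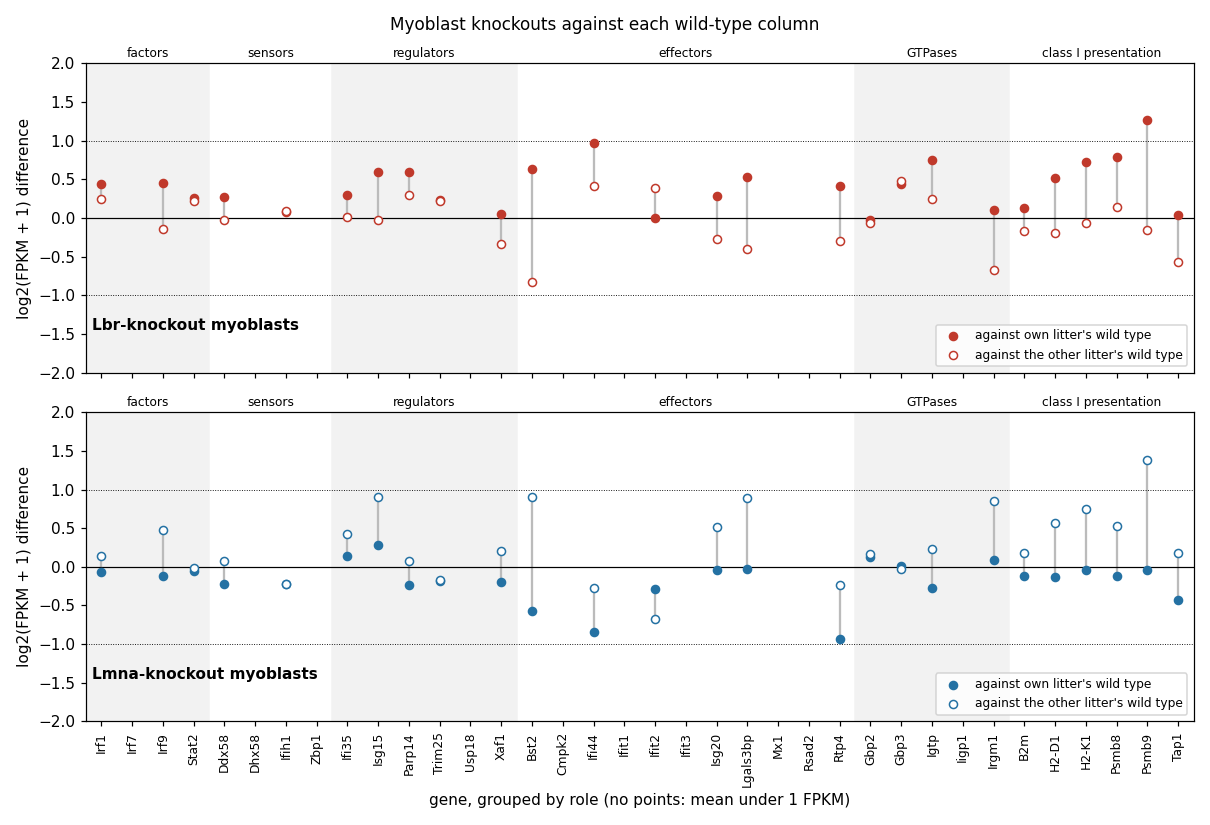
Log2(FPKM + 1) difference of each compared member from each of the 2 wild-type myoblast columns, for LBR_KO and LMNA_KO, with the 2-fold thresholds as lines. Psmb9 passes against the wild type of the Lbr litter in both knockouts (1.27 and 1.39) and against the other wild type in neither.

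Among the members the 4 myoblast columns divided by litter in 16 of 26, against 68.7% of 11447 genes, and by knockout in 1, against 16.2%. The share by litter was near that of all genes. For 13 members both columns of the Lmna litter were above both of the Lbr litter, against 39.3% of genes: Isg15, Isg20, Irf9, Gbp2, Irgm1, Bst2, Xaf1, Psmb9, Tap1, Lgals3bp, B2m, H2-K1 and H2-D1. Irgm1 had the clearest division, at 9.60 and 10.4 FPKM in the Lbr litter and 17.0 and 18.2 in the Lmna litter, a gap of 0.67. Gaps were small for the class I genes, at 0.03 for H2-K1, 0.05 for B2m and H2-D1, 0.12 for Psmb9 and 0.14 for Tap1. Those of Isg15 and Irf9 were 0.03. Ifit2, Ifih1 and Gbp3, 3 members, were higher in the Lbr litter, against 29.4%, although Ifih1 stood at 1.47 FPKM in both wild types and divided by 0.0002 on the log2 scale. Ifi35 alone was above both wild types in both knockouts, against 11% of genes, and no member was below both in both, against 5.22%. This division was counted after the values had been seen. Set directly against LMNA_KO, LBR_KO myoblasts were higher by 2-fold in Ifi44 (1.25), 1 of 26 members against 2.02% of 11466 genes, and in no member lower, against 1.32%. Ifi44 averaged 1 FPKM only with the LBR_KO column included, so its call is a description only. Irgm1 differed by -0.75, Ifit2 by 0.68 and Rtp4 (1.79 and 0.788 FPKM) by 0.64.

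The regulators and the other members with the widest differences are given here in the columns not shown above, with myoblasts in the order wild type of the Lbr litter, wild type of the Lmna litter, LBR_KO and LMNA_KO, and muscle in the order wild type, LBR_KO and LMNA_KO. Irf9 stood at 3.97, 6.52, 5.79 and 5.92 FPKM in myoblasts and 2.20, 3.04 and 2.79 FPKM in muscle. Stat2 stood at 4.12, 4.25, 5.14 and 4.08 FPKM in myoblasts and 2.25, 2.67 and 2.96 FPKM in muscle. Irf7 stood at 0.430, 1.40, 0.653 and 0.707 FPKM in myoblasts. The wild type of the Lmna litter was thus the highest myoblast column for Irf7 and Irf9 but not for Stat2, and all 3 genes were lowest in muscle in the wild type. Tap1 stood at 1.77, 3.20, 1.83 and 2.13 FPKM in myoblasts. Psmb8 stood at 6.02 FPKM in LBR_KO and 4.87 in LMNA_KO myoblasts. Isg15 stood at 2.22 FPKM in LBR_KO myoblasts and 0.849 in LBR_KO muscle. Tap1 thus had its knockout values between the wild types in myoblasts and above the wild type in muscle. Rsad2 stood at 0.162, 0.159, 0.278 and 0.0866 FPKM in myoblasts, under the limit for comparison and below every muscle column. Isg20 stood at 4.38, 6.90, 5.55 and 6.71 FPKM in myoblasts and 2.55, 1.63 and 2.48 FPKM in muscle. Irf1 stood at 4.20, 4.97, 6.08 and 4.72 FPKM in myoblasts, highest in LBR_KO. Gbp3 stood at 0.922 FPKM in LMNA_KO myoblasts and 1.70, 3.21 and 2.28 FPKM in muscle, so that LBR_KO was the highest column in both tissues. Parp14, an ADP-ribosyltransferase, stood at 1.60 FPKM in LMNA_KO myoblasts and 3.19, 3.76 and 5.07 FPKM in muscle, highest in LMNA_KO there. Irgm1 stood at 2.84, 3.42 and 4.53 FPKM in muscle. Igtp stood at 1.47 FPKM in LMNA_KO myoblasts and 3.81, 3.69 and 2.88 FPKM in muscle. Rtp4 stood at 1.10 and 2.42 FPKM in the wild-type myoblasts and 2.43, 2.50 and 2.54 FPKM in muscle, where the 3 columns were nearly level. Ifit2 stood at 4.72 FPKM in LBR_KO myoblasts, next to the 4.71 of the wild type of its litter.

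The other pathway lists gave no call against both wild types in either myoblast knockout. Between the wild types Ptpn6 (0.894 FPKM in the Lbr litter and 4.72 in the Lmna litter, 1.60) and Ifi27l2a (0.560 and 2.65 FPKM, 1.23) rose in the Lmna litter. The largest shared differences in LBR_KO were those of Tlr7, an endosomal RNA receptor (1.46 and 2.69 FPKM in the wild types and 4.95 in LBR_KO, at least 0.69 above each), and Trim30a (0.662, 1.56 and 2.80 FPKM, at least 0.57). Ifitm3, which blocks viral entry and was the highest gene of the induced list named here, stood at 429 and 707 FPKM in the wild types, 592 in LBR_KO and 768 in LMNA_KO. Both columns of the Lmna litter were above both of the Lbr litter.

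The tissue comparison took genes that averaged 1 FPKM or more over all 7 columns, which 27 members did. Wild-type muscle was lower by at least 2-fold than both wild-type myoblast columns in 6 of these 27, against 31.9% of 12145 genes. These were Ifit2 (-1.09), Trim25 (-1.36), Irgm1 (-1.46), Lgals3bp (-1.70), Ddx58 (-1.83) and B2m (-2.35), each value from the nearer wild type. One member was higher, against 15.7%: Cmpk2, a nucleotide kinase gene next to Rsad2, at 2.25 FPKM in wild-type muscle and 0.277 and 0.223 in the wild-type myoblasts (1.35). Cmpk2 reached that average through the muscle columns alone, standing at 0.197 and 0.189 FPKM in the knockout myoblasts, so its call is a description only. Among the members that were lower, Ddx58 stood at 7.36, 9.28, 9.07 and 7.84 FPKM in myoblasts, in the column order given above, and at 1.35, 1.97 and 2.34 FPKM in muscle. Trim25 stood at 11.3, 11.4, 13.5 and 9.95 FPKM in myoblasts and 3.81, 5.86 and 4.32 FPKM in muscle. Lgals3bp stood at 38.2 FPKM in LBR_KO and 49.7 in LMNA_KO myoblasts and at 7.41, 12.0 and 10.1 FPKM in muscle. For all 3 genes every myoblast column was above every muscle column. Gbp2 lay just short of the limit at -0.99. H2-K1, Bst2, Psmb9 and Usp18 lay between the myoblast wild types. Across all 7 columns 20 members were at 1 FPKM or more in each, and 2, Dhx58 and Zbp1, were under 1 FPKM throughout.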

How the data were processed

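RNA of 12 samples was measured by RNA-seq after TRIZOL extraction and RNeasy purification, per the labels' protocols. The deposited table holds FPKM values that the authors had already combined into 7 columns, and the submitters' processing notes name genome build mm9. For the aligner, quantifier, annotation and the combining of samples, the tools were not given in the sources used here. Depth per library is unknown, and no interval was computed.

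Values were compared as log2(FPKM + 1), a pseudocount of 1, with Python 3.11.15, pandas 2.3.3 and numpy 2.4.6. Genes needed a mean of at least 1 FPKM over a tissue's columns (over all 7 between tissues) and no 0 in a compared column. A call needed at least 2-fold and, for myoblast knockouts, the same direction against both wild types. With 1 column per group, the tests planned over samples were replaced by these descriptions. A limma 3.58.1 fit (R 4.3.3), with the 2 wild-type myoblast columns as 1 group, was an alternative. Others were pseudocounts of 0.1 and 5, a minimum of 5 FPKM or none, centring, quantile normalization and leaving out either wild-type myoblast column. A minimum of 1 FPKM in wild-type muscle was added after the values were seen. Promoters came from RefSeq (GRCm38.p6), and shared stretches of 50 bases from GENCODE M21 transcripts.

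Members and pathway lists were chosen with earlier results of these data known. All 36 members were accounted for. Values in every column were given for members called in a knockout comparison, for the 4 widest differences in each knockout comparison, and for the class I genes, Irf7, Irf9, Stat2 and Isg15. At most 4 genes were named from each pathway list in each comparison, and other genes were named after their values were seen.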

Additional observations from a re-analysis of the deposited data

How the results depend on the processing

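Of 61 alternative counts of members called, 43 were within 1.5 times of the reported count and 18 were not. A reported count of 0 that stayed at 0 was scored as within, and so were the limma fits of both myoblast knockouts. The 43 is therefore not a measure of stability. The wild types differed in 4 members with a pseudocount of 0.1, and in 1 with a pseudocount of 5 or a minimum of 5 FPKM. Without the wild type of the Lmna litter, 1 member (Psmb9) was called in LBR_KO myoblasts and 1 in LMNA_KO myoblasts. In LBR_KO muscle the count was 5 with a pseudocount of 0.1, and 1 with a pseudocount of 5, a minimum of 5 FPKM or centred columns. In LMNA_KO muscle it was 3 with a pseudocount of 0.1 and 1 under quantile normalization. The muscle knockouts differed directly in 1 member (Rsad2) with a pseudocount of 0.1, and Rsad2 averaged 1 FPKM only with the LMNA_KO column included. The myoblast knockouts differed in 2 with a pseudocount of 0.1, and in 0 with a pseudocount of 5, a minimum of 5 FPKM or quantile normalization. The tissue count was 2 with a pseudocount of 5 and 13 without the wild type of the Lbr litter. The cause of these changes was not tested. Among values of single members called in the reported comparison, 0 reversed. Members not called there could not be marked as reversed. In LBR_KO myoblasts, for example, Psmb9 differed by 1.27 against the wild type of the Lbr litter and by -0.16 against that of the Lmna litter. With limma, 0 of 26 members had an adjusted p under 0.05 and 0 an unadjusted p under 0.05 in either myoblast knockout, against 37 and 47 genes called of 11447, but each knockout there was 1 column and the 1 residual degree of freedom was the difference between the wild types of 2 litters, so the fit says nothing about how stable the counts are. No paired analysis was possible because each group had a single column, and leaving out single samples of a group was not run for the same reason.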

Other observations

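A few signalling genes outside the 36 members divided by litter in myoblasts with the higher values in the Lbr litter, as 29.4% of all genes did. Others divided the opposite way, as 39.3% of all genes did. Ifngr2 stood at 46.7 and 49.7 FPKM in the Lbr litter and 62.4 and 68.3 in the Lmna litter, and Tmem173 at 14.9 and 18.6 against 21.0 and 22.3. The lists were not counted in either direction. Of the 6 class I genes, 5 (all but Psmb8) had their higher values in the Lmna litter, but by gaps of only 0.03 to 0.14 on the log2 scale. For H2-K1 the wild type of the Lbr litter, at 19.6 FPKM, stood apart from the other columns at 32.9 to 34.7. The signalling genes were chosen after their values were seen, and no test was made. Eif2ak2, the RNA-activated kinase PKR, stood at 14.4 FPKM in the wild type of the Lbr litter and 16.1 in LBR_KO, against 8.18 in the wild type of the Lmna litter and 8.06 in LMNA_KO. Jak2, a kinase of the interferon gamma receptor, stood at 20.9 and 19.8 FPKM in the Lbr litter and at 12.0 in both columns of the Lmna litter. Nmi, a partner of Ifi35, stood at 3.34 FPKM in both columns of the Lbr litter and at 2.06 and 1.65 FPKM in those of the Lmna litter. In muscle, where wild-type and knockout columns are not divided by litter, Eif2ak2 stood at 1.95 to 2.17 FPKM and Jak2 at 6.30 to 7.42 FPKM. Nmi stood at 4.46 FPKM in wild type, 7.08 in LBR_KO and 4.40 in LMNA_KO.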
